A study of Homo sapiens with 4 samples.

Results

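The 10 genes described here belong to the transforming growth factor beta (TGF-beta) and bone morphogenetic protein (BMP) signalling pathways: the ligand genes TGFB1 and TGFB2, the receptor genes TGFBR1, TGFBR2 and TGFBR3, the signal transducer SMAD3, the inhibitors SMAD7 and BAMBI, and the targets TGFBI and ID1. They were taken by name, and all 10 were among the 15279 named rows of the deposited table. RNA-seq had been made from 2 libraries of MDA-MB-231, a human breast cancer line of triple-negative type (labelled MDA231-P, called parental here), and 2 of its brain metastatic derivative MDA-MB-231Br (labelled MDA231-BR). Both lines grew in DMEM with 10% FBS, with no treatment, time point or genetic change named in the labels. The derivative is a single line, and its libraries stand for that line and not for brain metastases in general. The comparison of the lines, named in the series design, asks how gene expression of breast cancer cells differs from that of their brain metastatic derivative.

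TGF-beta ligands are secreted in a latent form, and once released they bind a type II receptor, which phosphorylates a type I receptor. The type I receptor in turn phosphorylates SMAD2 and SMAD3, which enter the nucleus with SMAD4 and act on target genes. BMP ligands use other receptors and SMAD1, SMAD5 and SMAD9, with the ID genes among their best-known targets. Inhibitors such as SMAD7 and BAMBI are themselves induced by the pathway and feed back on it. In advanced breast cancer the pathway is known for its ties to invasion and metastasis.

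The libraries held 25835225 to 30771290 reads in named genes. The letters A and B follow the column order of the table, because its headers name only the line. The labels do not tell whether a line's libraries were separate cultures, and the p-values therefore rest on a spread that may be technical. With no strand setting stated, reads of these genes and of antisense genes that overlap them cannot be told apart. Values are normalized reads per gene unless stated otherwise. All 8 genes fixed as expressed in MDA-MB-231, such as VIM, CD44 and CAV1, were detected in every library, with a summed level of 146488 to 164702 in parental and 237278 to 290635 in brain metastatic libraries. Single genes of that list differed in direction: VIM lay at 42476 and 38423 against 118095 and 119552, and CAV1 at 27966 and 27283 against 10799 and 9773. KRT8 was also lower in both brain metastatic libraries, at 3504 and 3023 against 2452 and 2438. KRT18 was higher in both, at 2018 and 1670 against 2368 and 2321, as were CD44, FN1 and EGFR. AXL overlapped between the lines. ESR1, the oestrogen receptor gene, was at 0 to 1.94 in parental and 6.72 to 26.5 in brain metastatic libraries, and the epithelial cadherin gene CDH1 lay between 2.56 and 14.8. Of the other genes fixed as low or absent in this line, the epithelial gene EPCAM lay at 333 and 398 in parental and 91.2 and 227 in brain metastatic libraries, the luminal gene GATA3 at 227 to 301 in all 4, and FOXA1 at 7.68 to 22.3. PGR was not analysed here. Of 30 markers of fibroblasts, endothelial cells, microglia or macrophages, astrocytes, neurons and oligodendrocytes, 9 had a row in the table, and none of the 5 fibroblast markers did. Among those 9, MAG was at 0 in every library and CDH5 reached at most 4.80. The summed endothelial markers lay at 125 to 228 in parental and 717 to 821 in brain metastatic libraries, nearly all PECAM1 and KDR, and the summed astrocyte markers at 189 to 214 and 1114 to 1388, mostly GJA1. The only microglia or macrophage marker with a row, CSF1R, lay at 264 to 338 in parental and 33.6 to 55.1 in brain metastatic libraries. The only neuronal one, SYT1, lay at 45.2 to 65.0 and 97.0 to 190, and the summed oligodendrocyte markers, all of it MBP, at 2328 to 2550 and 3751 to 3999. Their part in the results was not tested. In bulk RNA, fewer cells of a type and less RNA per cell cannot be told apart.

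TGFB1 and BAMBI were higher and TGFBI and ID1 lower in brain metastatic cells, and the other 6 genes did not pass the test. The test was limma-trend on log2(value + 1), with a threshold of 0.05 on p-values adjusted over all 14424 genes tested by the Benjamini-Hochberg method. All 10 genes passed the filter on low values. Of the 10, 4 passed (40%), against 14.4% of all genes tested. In each direction 2 of 10 passed, against 8.61% of all genes higher and 5.8% lower. The median log2 fold change of the 10 genes was 0.09, against 0.01 over all genes. The genes were chosen with earlier results of these data known, so these shares describe them and are not a test.

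The 4 genes passed in each of 9 fits with another test, scaling, filter or pseudocount. DESeq2 called 5 of the 10, against 20.2% of all genes. With no filter 4 of 10 passed, against 12.3%, and the other 7 settings called 4 of 10 each, against 14.2% to 15.4%. Leaving out a parental library mattered more: without library A or without library B only TGFBI passed, 1 of 10, against 2.92% and 2.97% of all genes. In those 2 fits the spread within a line came from the brain metastatic pair alone. In the 2 fits that left out a brain metastatic library it came from the parental pair alone. Without brain metastatic library A 7 of the 10 genes passed, against 36.4% of all genes, and without library B 4 of 10, against 21.8%.

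**Figure D1:**
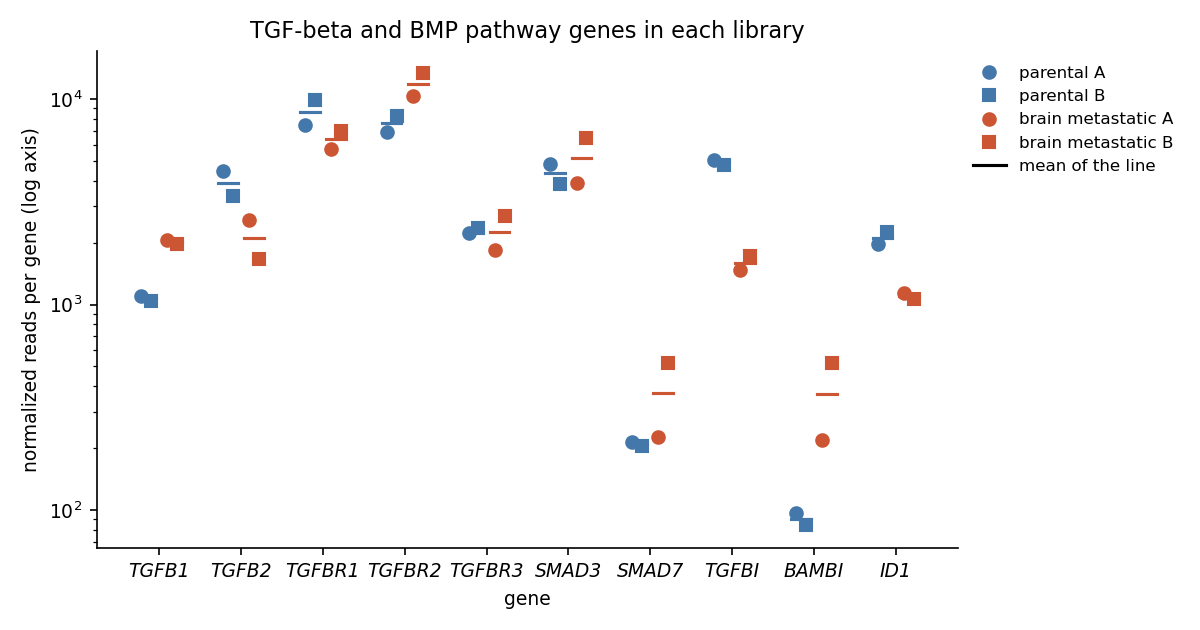
Normalized reads of each gene (log axis) in parental library A and B (blue circle and square) and brain metastatic library A and B (orange circle and square), with the mean of each line as a bar. TGFB1 and BAMBI lay higher and TGFBI and ID1 lower in both brain metastatic libraries, while TGFBR3 and SMAD3 overlapped between the lines.

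Of the 2 ligand genes, TGFB1 rose, while TGFB2 had lower values in brain metastatic cells and did not pass. TGFB1 encodes the most widely expressed ligand of the family. It measured 1103 in parental library A, 1038 in parental library B, 2068 in brain metastatic library A and 1976 in brain metastatic library B. Pairs of values below follow the same order, A before B. The lines did not overlap, and the libraries within a line lay close together. TGFB1 rose 1.89-fold (95% interval 1.33 to 2.69, log2 fold change 0.92 ± 0.22 SE, adjusted p = 0.0312). Without parental library A the log2 fold change was 0.96 (adjusted p = 0.172), and without parental library B 0.87 (adjusted p = 0.273).

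TGFB2, a ligand that depends on the co-receptor TGFBR3 for efficient binding, measured 4465 and 3381 in parental and 2566 and 1664 in brain metastatic libraries. Both brain metastatic libraries were below both parental ones, but libraries within each line also differed. The log2 fold change of -0.91 ± 0.28 SE was close in size to that of TGFB1, yet its adjusted p of 0.0663 missed the threshold. DESeq2 on the recovered reads called it lower (adjusted p = 0.0209), whereas edgeR's quasi-likelihood test did not (adjusted p = 0.0619).

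The balance between the ligand transcripts can be read within each library. Per kilobase of the longest annotated transcript, TGFB2 over TGFB1 was 2.22 and 1.78 in the parental libraries and 0.680 and 0.461 in the brain metastatic ones. TGFB2 was thus the more abundant ligand transcript per length in both parental libraries and TGFB1 in both brain metastatic ones. Not divided by length, TGFB2 over TGFB1 was 4.05 and 3.26 in parental and 1.24 and 0.842 in brain metastatic libraries. TGFB2 then had more reads than TGFB1 in brain metastatic library A as well. The order in that library therefore rests on the transcript lengths used. With 2 libraries against 2, an exact two-sided permutation test cannot go below p = 0.333, and no other test of the ratio was made.

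**Figure D2:**
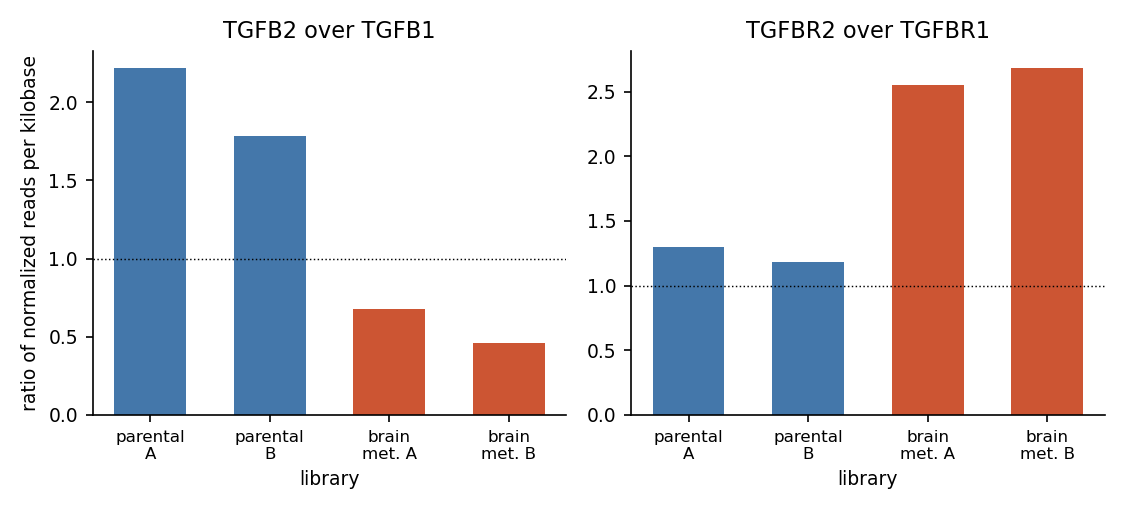
Ratio of normalized reads per kilobase of the longest transcript in each library, TGFB2 over TGFB1 (left) and TGFBR2 over TGFBR1 (right), with a dotted line at a ratio of 1. The ligand ratio was 2.22 and 1.78 in parental and 0.680 and 0.461 in brain metastatic libraries, and the receptor ratio 1.30 and 1.19 against 2.55 and 2.68.

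The promoters of the ligand genes are shown because the ratio of their transcripts differed between the lines. The sequences are the 250 bases before the start site, from RefSeq on GRCh38.p14, 5′ to 3′ in the direction of transcription; the authors' build was GRCh37, so they were matched by symbol. Capitals mark every match, on either strand, to 1 of 4 motifs: the SMAD box CAGAC, the GC-rich element GGCGCC bound by BMP SMADs, the GC box GGGCGG bound by SP1, and the TATA box TATAAA. The GC-rich element reads the same on both strands and was counted once per place. Of 35116 RefSeq windows of this length, 38% held the SMAD box, 16.4% the GC-rich element, 42.6% the GC box and 10.7% the TATA box. A match describes the letters and not a bound site.
TGFB1: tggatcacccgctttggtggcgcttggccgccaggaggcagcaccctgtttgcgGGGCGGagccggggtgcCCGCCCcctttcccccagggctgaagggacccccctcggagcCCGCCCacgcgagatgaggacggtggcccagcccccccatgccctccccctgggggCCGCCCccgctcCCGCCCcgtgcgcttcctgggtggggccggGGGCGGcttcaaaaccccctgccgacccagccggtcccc
TGFB2: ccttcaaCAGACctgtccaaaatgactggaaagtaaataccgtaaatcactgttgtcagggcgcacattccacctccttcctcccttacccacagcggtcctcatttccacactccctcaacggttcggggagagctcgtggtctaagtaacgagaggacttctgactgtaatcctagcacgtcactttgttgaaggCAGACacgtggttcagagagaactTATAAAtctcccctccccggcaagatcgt
The TGFB1 window (chr19:41353923-41354172, minus strand) held 6 GC boxes, no TATAAA and no CAGAC, with a GC content of 76.8%. The TGFB2 window (chr1:218345086-218345335, plus strand) held TATAAA 29 to 24 bases before the start, 2 CAGAC matches and no GC box, with a GC content of 50.4%. The median GC content over all windows was 58%.

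None of the 3 receptor genes passed the test. TGFBR2 encodes the type II receptor that binds the ligand first. It measured 6904 and 8299 in parental and 10365 and 13332 in brain metastatic libraries, with no overlap between the lines. Its fold change was 1.55 (95% interval 1.06 to 2.27, log2 0.63 ± 0.24 SE, adjusted p = 0.111). TGFBR1, the type I receptor kinase, measured 7498 and 9869 in parental and 5729 and 7009 in brain metastatic libraries. Its brain metastatic values were below both parental values, at a log2 fold change of -0.44 ± 0.24 SE (adjusted p = 0.248).

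TGFBR3 encodes betaglycan, a co-receptor without a kinase that presents TGF-beta 2. It measured 2220 and 2347 in parental and 1833 and 2696 in brain metastatic libraries. The brain metastatic libraries lay on either side of the parental ones, and the log2 fold change was -0.04 ± 0.26 SE (95% interval -0.63 to 0.55, adjusted p = 0.934). The interval leaves out a change of 2-fold or more in either direction but not smaller ones.

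Within each library the receptor balance differed between the lines more than within them. Per kilobase, TGFBR2 over TGFBR1 was 1.30 and 1.19 in the parental libraries and 2.55 and 2.68 in the brain metastatic libraries. The type II transcript was the more abundant one per length in all 4 libraries. Not divided by length, TGFBR2 over TGFBR1 was 0.921 and 0.841 in parental and 1.81 and 1.90 in brain metastatic libraries. TGFBR1 then had more reads than TGFBR2 in both parental libraries. The order in the parental libraries therefore rests on the transcript lengths used. The receptor ratio was not tested either.

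SMAD3, the transcription factor that carries the TGF-beta signal to the nucleus, measured 4837 and 3875 in parental and 3911 and 6472 in brain metastatic libraries. The lines overlapped, and the difference did not pass (log2 fold change 0.22 ± 0.29 SE, 95% interval -0.44 to 0.88, adjusted p = 0.639). Its direction turned without brain metastatic library B (-0.15).

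The 2 inhibitors were the lowest of the 10 genes in every library per kilobase, at 44.8 to 51.2 for BAMBI and 46.2 to 48.4 for SMAD7 in parental libraries. BAMBI encodes a pseudoreceptor that resembles a type I receptor but lacks the kinase domain, and so blocks signalling by TGF-beta, activin and BMP receptors. It measured 96.4 and 84.4 in parental and 220 and 518 in brain metastatic libraries, from 113, 87, 229 and 489 reads. Both brain metastatic libraries were above both parental ones, and library B was far above library A. BAMBI rose 3.71-fold (95% interval 1.89 to 7.29, log2 fold change 1.89 ± 0.42 SE, adjusted p = 0.024). A change of at least this size was seen in few genes: 5.73% of all genes tested moved further in either direction. Without brain metastatic library A its log2 fold change was 2.51, and without library B 1.28. It did not pass without parental library A (adjusted p = 0.111) or B (adjusted p = 0.176).

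SMAD7 encodes the inhibitory SMAD that binds type I receptors and brings them to degradation. It measured 214 and 205 in parental and 227 and 518 in brain metastatic libraries. Library A was barely above the parental pair, library B was far above it, and the test was not passed (log2 fold change 0.71 ± 0.40 SE, adjusted p = 0.26). Without brain metastatic library A its log2 fold change was 1.30, and without library B 0.11. The reads of 15 mitochondrial pseudogenes, which can reflect RNA quality, made up 0.17% of library B and 0.0425% to 0.0483% of the other 3 libraries. Whether this bears on the SMAD7 and BAMBI values was not tested.

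The promoter of BAMBI is shown because it had the largest change of the 10 genes.
BAMBI: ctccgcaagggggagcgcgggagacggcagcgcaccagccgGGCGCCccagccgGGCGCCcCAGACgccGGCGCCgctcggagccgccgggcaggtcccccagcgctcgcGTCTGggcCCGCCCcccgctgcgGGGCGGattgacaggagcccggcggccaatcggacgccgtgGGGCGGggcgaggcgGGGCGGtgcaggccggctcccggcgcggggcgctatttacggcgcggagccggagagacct
This window (chr10:28677271-28677520, plus strand, same source, length and capitals as above) held 2 matches to the SMAD box, 3 to GGCGCC and 4 GC boxes. A SMAD box at 189 to 185 bases before the start lay between a pair of GGCGCC matches at 196 to 191 and 181 to 176 bases. None of these matches overlapped. Its GC content was 81.2%.

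Both targets that are not inhibitors fell. TGFBI encodes a secreted matrix protein that binds integrins and is named for its induction by TGF-beta. It measured 5064 and 4760 in parental and 1470 and 1719 in brain metastatic libraries. The lines were far apart compared with the libraries within each. TGFBI was 3.09-fold lower (log2 fold change -1.63 ± 0.22 SE, 95% interval -2.13 to -1.12, adjusted p = 0.00352). Among the 10 genes it alone passed in each of the 4 fits that left out one library, with log2 fold changes between -1.74 and -1.51.

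ID1 encodes a helix-loop-helix protein that blocks other transcription factors, and its gene is a direct BMP target. It measured 1971 and 2249 in parental and 1132 and 1064 in brain metastatic libraries, again without overlap. ID1 was 1.92-fold lower (log2 fold change -0.94 ± 0.22 SE, 95% interval -1.46 to -0.42, adjusted p = 0.0306). It was -1.03 without parental library A (adjusted p = 0.15) and -0.84 without parental library B (adjusted p = 0.304).

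The promoters of TGFBI and ID1 are shown because both targets fell.
TGFBI: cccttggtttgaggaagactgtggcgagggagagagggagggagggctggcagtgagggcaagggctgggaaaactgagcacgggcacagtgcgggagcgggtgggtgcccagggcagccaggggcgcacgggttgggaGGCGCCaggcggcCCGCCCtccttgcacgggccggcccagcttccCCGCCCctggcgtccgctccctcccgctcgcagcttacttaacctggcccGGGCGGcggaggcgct
ID1: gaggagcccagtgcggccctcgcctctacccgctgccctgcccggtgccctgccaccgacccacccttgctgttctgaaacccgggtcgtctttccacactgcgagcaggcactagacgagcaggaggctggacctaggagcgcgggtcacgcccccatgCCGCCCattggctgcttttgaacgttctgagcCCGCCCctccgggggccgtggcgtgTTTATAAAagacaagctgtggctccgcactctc
Neither window held the SMAD box CAGAC. The TGFBI window (chr5:136028738-136028987, plus strand) held 1 GGCGCC and 3 GC boxes. The ID1 window (chr20:31605039-31605288, plus strand) held 2 GC boxes and TATAAA on both strands, overlapping, between 33 and 26 bases before the start.

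**Figure D3:**
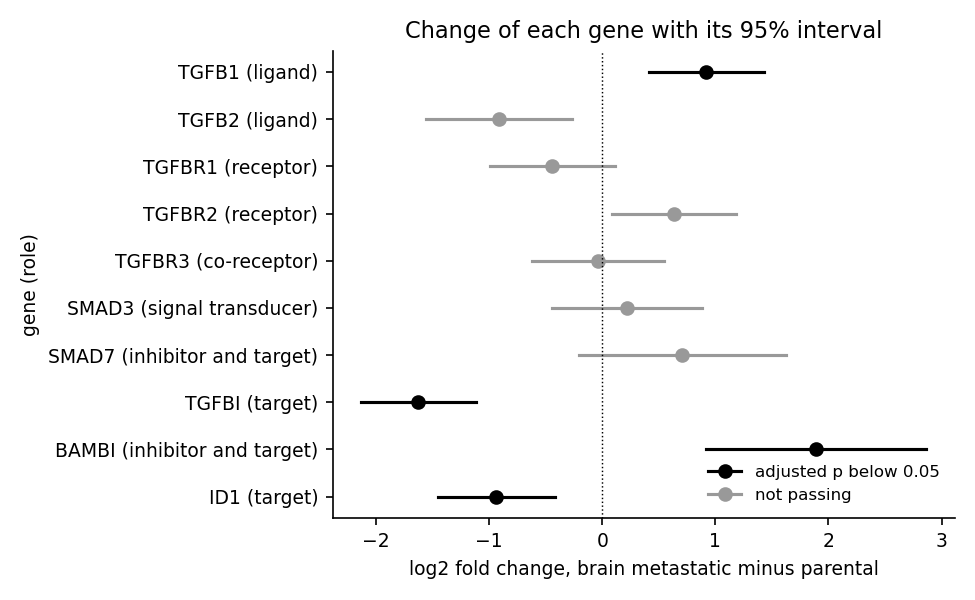
Log2 fold change of each gene, brain metastatic minus parental (point), with its 95% interval from limma-trend (line), black where the adjusted p was below 0.05 and grey otherwise. BAMBI (1.89) and TGFB1 (0.92) stand to the right and TGFBI (-1.63) and ID1 (-0.94) to the left.

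Set side by side by role, the 5 ligand and receptor genes had 1 member higher, 0 lower and 4 not passing, with a median log2 fold change of -0.04, where 8.61% of all genes were higher and 5.8% lower. The 2 targets that are not inhibitors had 0 higher and 2 lower, with a median of -1.28. With SMAD7 and BAMBI counted as targets as well, 1 of 4 was higher and 2 were lower, with a median of -0.12. The wider list of TGF-beta targets below had 5 of 28 higher and 4 lower (median 0.25). That of BMP targets had 2 of 11 higher and 1 lower (median 0.71). The lines' libraries did not overlap in 8 of the 10 genes, 4 higher and 4 lower in brain metastatic cells. Over all genes tested they did not overlap in 61.3%, with 31.7% higher and 29.7% lower, so non-overlap alone was common. Members of a role are not replicates, and no test was made between roles.

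The 2 brain metastatic libraries differed from each other by gene. As log2 differences from the parental mean, TGFB1 was 0.95 (A) and 0.88 (B), and ID1 -0.89 and -0.98. Those genes moved about equally in both libraries. BAMBI had 1.28 (A) and 2.51 (B), and SMAD7 0.11 and 1.30. The gap between the brain metastatic libraries was 1.23 for BAMBI and 1.19 for SMAD7, against a median absolute gap of 0.38 over all genes tested, and 6.59% and 7.16% of genes had a larger gap. TGFBR3 and SMAD3 lay below the parental mean in library A and above it in library B.

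**Figure D4:**
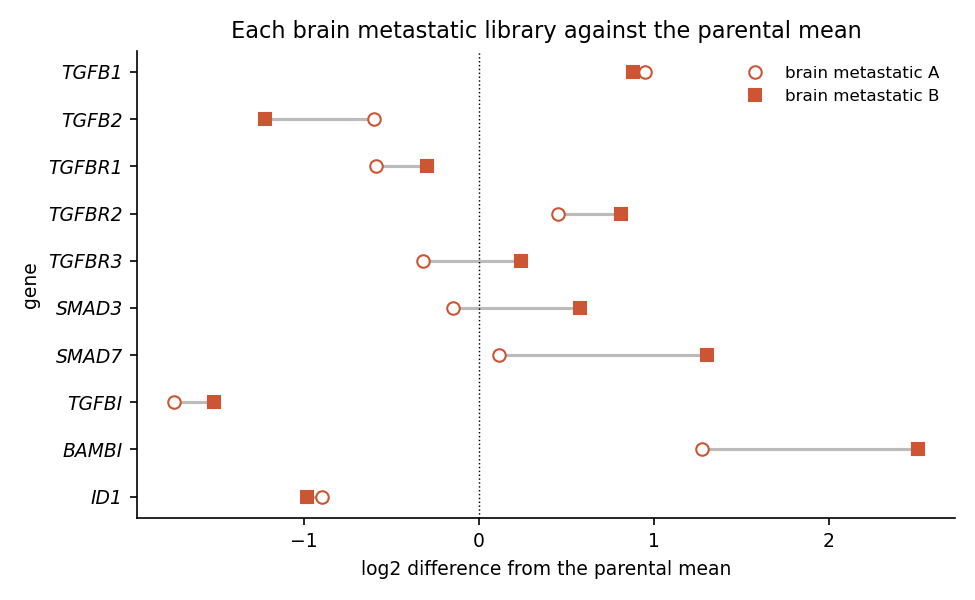
Log2 difference of brain metastatic library A (open circle) and library B (filled square) from the parental mean for each gene. TGFB1 and ID1 have nearly the same value in both libraries, whereas BAMBI (1.28 and 2.51) and SMAD7 (0.11 and 1.30) are much higher in library B.

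Of 133 genes fixed for the wider pathway in 9 lists, the 10 above included, 105 had a row and 99 were tested. Among these, 18 were higher (18.2%, against 8.61% of all genes), 8 lower (8.08%, against 5.8%) and 73 did not pass. The 26 that passed were 26.3% of those tested, against 14.4% of all genes. The median log2 fold change was 0.30, against 0.01 over all genes. The lists were chosen with earlier results of these data known. These shares, and those of each list below, therefore describe the genes and are not a test. Leaving out the 10 genes above, 16 of 89 were higher and 6 lower, or 24.7% called, against 14.4% of all genes. Of the 99, 10 passed when parental library A was left out and 8 when parental library B was, against 2.92% and 2.97% of all genes. Leaving out a brain metastatic library gave 48 (A) and 36 (B), against 36.4% and 21.8% of all genes.

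**Figure D5:**
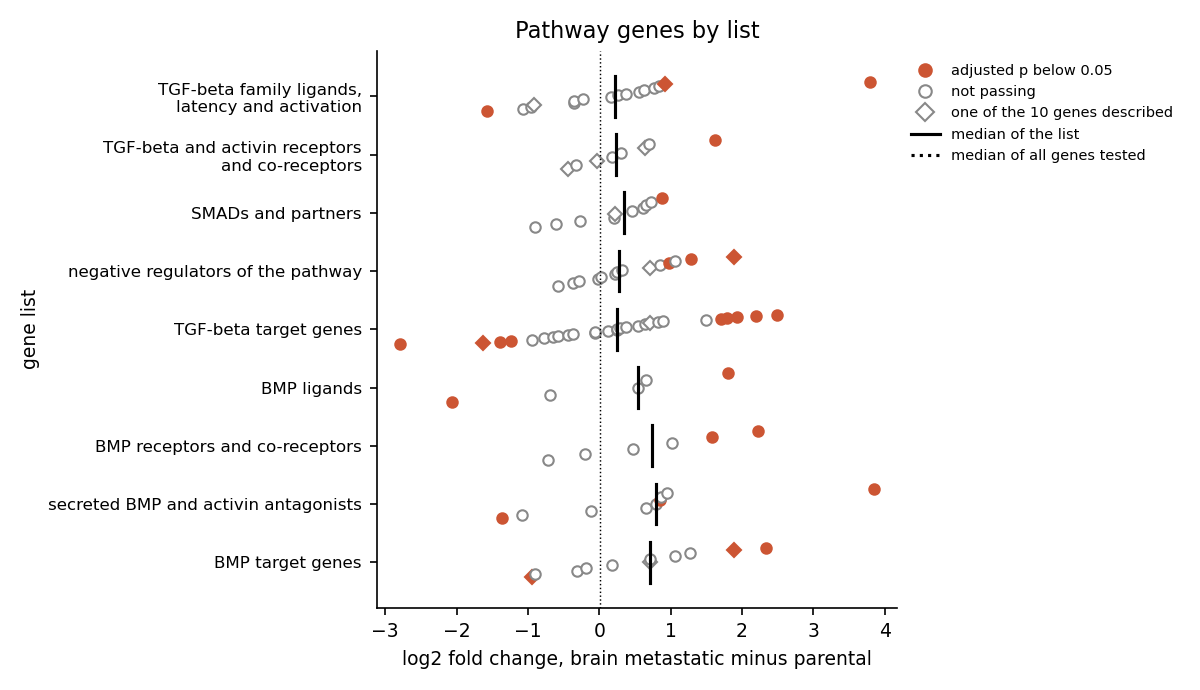
Log2 fold changes, brain metastatic minus parental, of the tested genes of each list, filled where the adjusted p was below 0.05, with diamonds for the 10 genes described above, a bar at each list's median and a dotted line at the median of all genes tested. INHBB (3.80) and CHRDL1 (3.85) lie farthest to the right.

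Among TGF-beta family ligands and the genes for their latency and activation, 2 of 16 were higher and 1 lower (median 0.21). In all, 18.8% passed, and 14.3% of the list without TGFB1 and TGFB2, against 14.4% of all genes. INHBB encodes the beta B subunit of activins, which signal through the same SMADs as TGF-beta. It measured 52.9 and 51.4 in parental and 961 and 567 in brain metastatic libraries (log2 fold change 3.80, adjusted p = 0.000688). FURIN, the convertase that cleaves the TGF-beta precursor, fell from 2676 and 2222 to 834 and 803 (log2 fold change -1.57, adjusted p = 0.0047). INHBA, the beta A subunit gene, had lower values in both brain metastatic libraries, at 1811 and 2046 against 652 and 1298, and did not pass (adjusted p = 0.0696). The third TGF-beta gene, TGFB3, lay at 31.0 to 46.1 in all 4 libraries. FURIN did not pass without parental library A (adjusted p = 0.0731).

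Of the TGF-beta and activin receptors and co-receptors, 1 of 8 was higher and 0 lower (median 0.24), or 12.5% against 14.4% of all genes. This was ENG, or endoglin, a co-receptor best known from endothelial cells, at 651 and 456 in parental and 1686 and 1680 in brain metastatic libraries (log2 fold change 1.63, adjusted p = 0.0068). It did not pass without parental library B (adjusted p = 0.0846). The endothelial marker KDR was also higher in both brain metastatic libraries, at 53.8 and 77.6 against 520 and 603. PECAM1 was higher as well, at 70.8 and 146 against 193 and 218, while CDH5 was at or near 0 in all 4 libraries.

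SMADs and their partners had 1 of 10 higher and 0 lower (median 0.34), or 10% against 14.4% of all genes. SMAD4, the common partner of all receptor-activated SMADs, measured 1074 and 1049 in parental and 1997 and 1899 in brain metastatic libraries (log2 fold change 0.88, adjusted p = 0.0358). It did not pass without parental library A (adjusted p = 0.197) or B (adjusted p = 0.285). None of the BMP SMADs passed: SMAD5 and SMAD9 had lower values in both brain metastatic libraries (adjusted p = 0.0946 and 0.0837), and SMAD1 had higher ones, at 98.1 and 99.9 against 156 and 173 (adjusted p = 0.153).

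Of the negative regulators 21.4% passed, and 16.7% without SMAD7 and BAMBI, against 14.4% of all genes. They had 3 of 14 higher (21.4%, against 8.61% of all genes) and 0 lower (median 0.28). The 3 were BAMBI and the ubiquitin ligase genes NEDD4L and SMURF2, whose products target SMADs or receptors. SMURF2 was the most abundant of these, at 12463 and 12422 in parental and 26293 and 22855 in brain metastatic libraries (log2 fold change 0.98, adjusted p = 0.0236). NEDD4L had a log2 fold change of 1.28 (adjusted p = 0.0137). Neither passed without parental library A (adjusted p = 0.182 for SMURF2 and 0.0795 for NEDD4L) or B (0.229 and 0.159). The co-repressor genes SKI and SKIL and the feedback gene PMEPA1 did not pass.

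TGF-beta target genes had 5 of 28 higher, 4 lower and 19 not passing (median 0.25). The shares were 17.9% higher and 14.3% lower, against 8.61% and 5.8% of all genes. Higher were the matrix genes TNC (2.48, adjusted p = 0.000637), COL1A1 (2.20, adjusted p = 0.00419) and FN1 (1.79, adjusted p = 0.00838), the AP-1 gene JUNB (1.93, adjusted p = 0.0022) and the cell cycle inhibitor gene CDKN1A (1.70, adjusted p = 0.00338), all as log2 fold changes. TNC, the gene of tenascin C, went from 1543 and 1523 to 8031 and 9176. Lower were TGFBI, the cytokine gene IL11 (-1.39, adjusted p = 0.0455) and the transcription factor genes SNAI1 (-2.79, adjusted p = 0.00803) and SNAI2 (-1.23, adjusted p = 0.0186). CDKN1A and SNAI1 fell outside the naming rule and were chosen after their values were seen. SNAI1 was low, at 57.2 and 59.2 in parental and 7.68 and 7.42 in brain metastatic libraries. CTGF, now called CCN2, a widely used readout of the pathway, did not pass (log2 fold change 0.25, adjusted p = 0.652). It measured 13411 and 16526 in parental and 25254 and 12374 in brain metastatic libraries, which lay on either side of the parental pair. CDKN2B had 0 reads in all 4 libraries and was not tested. IL11, SNAI2 and FN1 did not pass without parental library A (adjusted p = 0.136, 0.135 and 0.0505) or B (0.251, 0.163 and 0.0718), nor did COL1A1 without parental library B (0.0572). SNAI1 did not pass without either of them (0.114 and 0.134). The IL11 change was -2.01 when brain metastatic library A was left out and -0.77 when library B was. With no filter its adjusted p was 0.058.

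On the BMP side, 1 of 5 tested ligands was higher and 1 lower (median 0.54), against 8.61% and 5.8% of all genes. BMP2 measured 33.3 and 56.3 in parental and 166 and 143 in brain metastatic libraries (log2 fold change 1.81, adjusted p = 0.0209), and BMP8B 282 and 332 against 56.7 and 93.3 (log2 fold change -2.06, adjusted p = 0.00853). BMP4, the most abundant of the tested BMP ligand genes, had lower values in both brain metastatic libraries, at 1131 and 1156 against 823 and 612, and did not pass (adjusted p = 0.105). Of 6 BMP receptors and co-receptors, 2 were higher and 0 lower (median 0.74, 33.3% called against 14.4% of all genes). They were NEO1, or neogenin, and RGMB, its ligand and a BMP co-receptor (log2 fold change 1.58, adjusted p = 0.00893). NEO1 measured 422 and 368 in parental and 1421 and 2415 in brain metastatic libraries (log2 fold change 2.23, adjusted p = 0.00352), with a log2 fold change of 2.61 when brain metastatic library A was left out and 1.85 when library B was. The receptor kinase genes BMPR1A, BMPR1B, BMPR2 and ACVR1 did not pass. BMP2, BMP8B and RGMB did not pass without parental library A (adjusted p = 0.186, 0.0793 and 0.0505) or B (0.0837, 0.13 and 0.0936).

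Secreted antagonists of BMPs and activins had 2 of 9 higher and 1 lower (median 0.80), or 33.3% called against 14.4% of all genes. CHRDL1, or chordin-like 1, which binds and blocks BMPs, measured 247 and 308 in parental and 3383 and 4698 in brain metastatic libraries (log2 fold change 3.85 ± 0.27 SE, adjusted p = 0.000246). It passed without each library in turn, as did INHBB, TNC, JUNB, CDKN1A and NEO1. FSTL1, a secreted follistatin-like protein gene, had a log2 fold change of 0.86 (adjusted p = 0.0445). It missed the threshold with edgeR's quasi-likelihood test (adjusted p = 0.0532), with scaling to the library total (0.0527), with no filter (0.0582), or without parental library A (0.217) or B (0.361). TWSG1, twisted gastrulation, which modulates chordin, fell from 11052 and 15817 to 5296 and 5006 (log2 fold change -1.36, adjusted p = 0.0108), but did not pass without parental library B (adjusted p = 0.14). NOG, or noggin, varied between the brain metastatic libraries, at 5076 and 2128 against 1813 and 1607, and did not pass (adjusted p = 0.133).

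BMP target genes had 2 of 11 higher, 1 lower and 8 not passing (median 0.71), or 27.3% called, and 12.5% without the members described above, against 14.4% of all genes. BAMBI and ID4 were higher, and ID1 was lower. ID4, chosen after its values were seen, was low, at 9.39 and 13.6 in parental and 52.8 and 71.0 in brain metastatic libraries (log2 fold change 2.34, adjusted p = 0.0165). It did not pass without parental library A (adjusted p = 0.142) or B (adjusted p = 0.103). ID3 measured 488 and 478 in parental and 512 and 298 in brain metastatic libraries and did not pass (adjusted p = 0.538). ID2 had 2.56 to 13.6 normalized reads and was not tested. SMAD6, the inhibitory SMAD of the BMP branch, measured 129 and 71.8 in parental and 148 and 277 in brain metastatic libraries (log2 fold change 1.06, adjusted p = 0.133). Like BAMBI and SMAD7 it was highest in brain metastatic library B.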

How the data were processed

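RNA-seq of 2 parental and 2 brain metastatic libraries was analysed. Per the submitters' processing notes, HISAT2, featureCounts and DESeq2 were used with build GRCh37; their versions, the annotation, strand setting and filters are not given in these sources. The deposited values are a read signal per gene, normalized by the authors with one factor per library. Dividing by each column's smallest step gave whole reads for 100% of values (tolerance 0.01 reads). Because the unit is a signal, limma-trend on log2(value + 1) was the test, and edgeR's quasi-likelihood test on recovered reads, which called 2228 genes against 2079, an alternative. The 67 unnamed rows (0.031% to 0.0369% of reads) were left out. Genes passing edgeR's filterByExpr (minimum count 10, minimum total 15) numbered 14424. A fold change on this scale understates changes of low genes. One read equals 0.0325 to 0.0387 CPM (the share of the library's reads in named genes). Values are given by library.

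The genes and lists were chosen with earlier results of these data known. In each list up to 4 passing genes of each direction, those with the greatest change at a mean of at least 5 CPM, were named; further genes were chosen after their values were seen. RefSeq synonyms matched 2 listed genes under older symbols; 28 listed genes had no row and were not analysed here. Transcript lengths came from GENCODE v29 by symbol. Alternatives were other tests, scalings, filters and pseudocounts and leaving out each library. The test was tried on simulated data. The software was Python 3.11.15 and R 4.3.3 with DESeq2 1.42.0, edgeR 4.0.16 and limma 3.58.1.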

Additional observations from a re-analysis of the deposited data

How the results depend on the processing

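With another test, scaling, filter or pseudocount, the same number of the 10 genes passed (2 higher and 2 lower), except that DESeq2 called 3 lower, TGFB2 being the addition. DESeq2 also called 1287 genes lower in all, against 837, and 13 lower in the wider pathway, against 8. No direction among the 10 genes turned under those settings. Leaving out each library in turn gave 0 to 4 of the 10 genes higher and 1 to 3 lower, 310 to 2855 of all genes higher and 74 to 2402 lower, and 6 to 33 pathway genes higher and 2 to 15 lower. In those fits TGFBR3 ranged from -0.32 to 0.24 and turned sign without parental library B (0.0020) and without brain metastatic library A (0.24), and SMAD3 ranged from -0.15, without brain metastatic library B, to 0.58. Without brain metastatic library A the log2 fold change was -1.22 for TGFB2 and 0.82 for TGFBR2. A line left with 1 library is assumed to vary like the other. No paired analysis was possible because the column names carry no replicate numbers. Depth limits BAMBI most among the 10 genes, with 87 to 489 reads, and 6 pathway genes with a row had too few reads to test.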
